A study of Mus musculus with 8 samples.

Results

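The genes described here are 10 components of the machinery that takes a cell into and through mitosis, namely the cyclins Ccna2, Ccnb1 and Ccnb2, the kinases Cdk1, Aurka, Aurkb, Plk1 and Plk4, the transcription factor Foxm1 and the proliferation marker Mki67. They were taken by gene symbol from a table of 22065 named genes, and all 10 were present and passed the filter on low counts. RNA was sequenced in 8 libraries, each made from 100 sorted hematopoietic stem cells (HSCs; CD150+ CD48- EPCR+ Lineage- bone marrow cells) from C57BL/6 mice aged 8 to 10 weeks. The 4 Mitol Δ/Δ libraries came from Mitol Flox/Flox; MX1-cre+ mice, and the 4 control libraries from Mitol Flox/Flox; MX1-cre- littermates. Both groups carried the floxed alleles, and both had received Poly:IC, which induces the interferon-responsive MX1-cre, 1 week before the cells were collected. MX1-cre is active in hematopoietic cells and in other interferon-responsive tissues, so the deletion was not restricted to HSCs. Mitol (gene symbol Marchf5) encodes a ubiquitin ligase of the mitochondrial outer membrane. The comparison asked how loss of Mitol altered RNA levels in HSCs shortly after deletion.

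Cyclins are the regulatory subunits that switch on cyclin-dependent kinases. Cyclin A2 acts in S phase and G2, and cyclins B1 and B2 bind CDK1 to drive entry into mitosis. Aurora and Polo-like kinases then build the spindle, position chromosomes and complete division, FOXM1 activates transcription of many G2 and M phase genes, and Ki-67 coats mitotic chromosomes. HSCs of the adult marrow are mostly quiescent, and these genes are low in resting cells and rise as a cell passes from S phase to mitosis.

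Promoters of G2 and M phase genes often hold a cell cycle genes homology region (CHR), the element bound by the MuvB complex with B-MYB or the DREAM repressor, together with CCAAT boxes bound by NF-Y. RefSeq promoter windows (build GRCm38.p6, 250 bases before and 50 after the start site) were given for 7 of the 10 genes, Ccnb1, Ccnb2, Cdk1, Aurka, Plk1, Plk4 and Mki67. Each window was searched on both strands for TTTGAA (the common CHR form), CCAAT and TAAACA (a forkhead core). The stretches shown run 5′ to 3′ on the gene's strand over the 150 bases before the start site, with CHR and CCAAT matches in capitals, and ATTGG is CCAAT read on the opposite strand. They were chosen because they hold repeated CCAAT boxes (Ccnb1, Ccnb2), CHR and CCAAT matches side by side (Cdk1, Mki67) or no match at all (Plk4).
Ccnb1 (chr13:100786487-100786636, minus strand): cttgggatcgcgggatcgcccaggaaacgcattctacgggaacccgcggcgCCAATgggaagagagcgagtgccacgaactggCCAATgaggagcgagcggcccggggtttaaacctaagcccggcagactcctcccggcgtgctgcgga
Ccnb2 (chr9:70421555-70421704, minus strand): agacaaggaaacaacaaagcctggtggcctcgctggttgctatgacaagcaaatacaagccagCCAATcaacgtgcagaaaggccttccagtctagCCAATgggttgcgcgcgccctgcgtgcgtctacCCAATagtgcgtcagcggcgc
Cdk1 (chr10:69352913-69353062, minus strand): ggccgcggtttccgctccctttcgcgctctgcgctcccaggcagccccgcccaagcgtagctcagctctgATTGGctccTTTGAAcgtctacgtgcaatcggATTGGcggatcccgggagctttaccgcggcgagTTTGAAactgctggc
Mki67 (chr7:135716380-135716529, minus strand): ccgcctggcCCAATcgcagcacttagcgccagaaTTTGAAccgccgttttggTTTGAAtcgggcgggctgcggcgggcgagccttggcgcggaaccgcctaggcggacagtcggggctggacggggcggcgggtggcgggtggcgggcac
Plk4 (chr3:40799801-40799950, plus strand): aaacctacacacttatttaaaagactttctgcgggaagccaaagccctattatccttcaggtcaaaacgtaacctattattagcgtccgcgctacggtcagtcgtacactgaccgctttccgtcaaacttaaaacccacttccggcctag

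For Ccnb2, Aurka and Plk1 a CHR match lay just after the start site, and it is shown in capitals within 30 bases because the stretches above end before it.
Ccnb2 (chr9:70421533-70421562, minus strand): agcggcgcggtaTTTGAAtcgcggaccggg
Aurka (chr2:172370521-172370550, minus strand): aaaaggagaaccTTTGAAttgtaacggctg
Plk1 (chr7:122159453-122159482, plus strand): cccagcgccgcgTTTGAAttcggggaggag

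TTTGAA was found in 5 of the 7 windows (Ccnb2, Cdk1, Aurka, Plk1 and Mki67), against 20.2% of the 27025 genes with a window. CCAAT was found in 6 of the 7, against 41.1% of these genes, and 2 or more CCAAT matches in 5 of the 7, against 13.3%. The 5 genes with TTTGAA all had CCAAT as well, a combination present in 7.97% of all genes with a window. Ccnb1 had 2 CCAAT matches, no TTTGAA, and the single TAAACA match among the 7 genes, on the opposite strand 15 to 20 bases after the start site. TAAACA occurred in 15.1% of all genes with a window. In these shares a gene was counted if any of its windows held the match. In the Plk4 window none of the 3 motifs was found. No match overlapped another, and matches of such short letters are a description of the windows, not of binding.

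**Figure D1:**
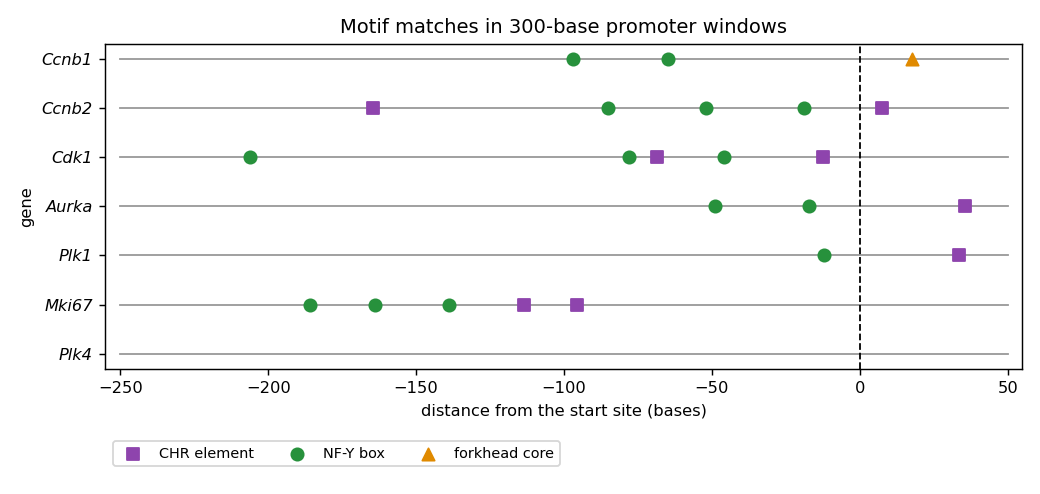
Position of motif matches in the promoter windows of 7 genes; the x axis gives the distance in bases from the RefSeq start site (dashed line), squares mark the CHR element, circles the NF-Y (CCAAT) box and the triangle the forkhead core. CHR matches lie after the start site in Aurka and Plk1, before it in Cdk1 and Mki67 and on both sides in Ccnb2, and Plk4 has no match.

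Libraries held 7214935 to 12398138 counts in named genes, and levels are given as CPM (counts scaled to a common library size) after TMM, a normalization that balances composition between libraries. Reads were counted by the authors over whole genes. Marchf5 had 29, 24.3, 32.9 and 29.8 CPM in Mitol Δ/Δ replicates 1 to 4 and 31.9, 33.2, 35.6 and 28.2 CPM in control replicates 1 to 4 (log2 fold change -0.15 ± 0.13 (SE), edgeR adjusted p = 0.498). The part of the gene removed by recombination is not given in the sources used here, so counts over the whole gene did not check the genotype labels. The paper reports that deletion of Mitol was established by PCR before mice were treated as Mitol Δ/Δ. Of 9 genes that mark the sorted HSCs or their identity, all were detected, with a summed level of 2376 to 2732 CPM in Mitol Δ/Δ and 3299 to 3888 CPM in control libraries. The most abundant, Kit (mean 744.1 CPM in Mitol Δ/Δ against 1251 CPM in control) and Hlf (587.8 against 1016 CPM), weighed most in this sum. They were the only 2 of the 9 that differed between groups (edgeR adjusted p under 0.05). Whether each library came from a separate mouse is not stated in the labels, so p-values measure the spread between these libraries, which may be partly technical.

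All 10 genes were higher in Mitol Δ/Δ HSCs by edgeR (quasi-likelihood test over 16444 genes, Benjamini-Hochberg adjusted p under 0.05). Over all genes tested, 4.68% were called higher in Mitol Δ/Δ HSCs and 3.75% lower, 8.43% in all. Higher calls made up 55.6% of all calls, and 42.1% when libraries were scaled by their totals only. The log2 fold changes of the 10 genes ran from 0.82 (Plk4) to 1.90 (Ccna2) with a median of 1.48, while the median over all genes was -0.02. A log2 fold change over 1, shown by 9 of the 10, was found for 2.38% of all genes tested. For 8 of the 10 genes every Mitol Δ/Δ library lay above every control library, as was the case for 7.28% of all genes tested (every library below in 7.87%), and the exceptions were Cdk1 and Mki67. The calls depended on single libraries: without Mitol Δ/Δ replicate 2, only Ccna2, Aurkb and Foxm1 passed the threshold, and without control replicate 2, only Ccna2, Aurka and Plk1. Calls numbered 5 without Mitol Δ/Δ replicate 1, 6 without replicate 3 and 6 without control replicate 4. Every fold change stayed positive when any 1 library was left out. All 10 genes had an unadjusted p under 0.05 in each of these edgeR fits. Such a p was common among all genes tested, from 3442 of 16614 without control replicate 4 to 4999 of 16907 without Mitol Δ/Δ replicate 4. In bulk RNA from 100 cells, a larger share of cycling cells cannot be told apart from more RNA per cell.

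**Figure D2:**
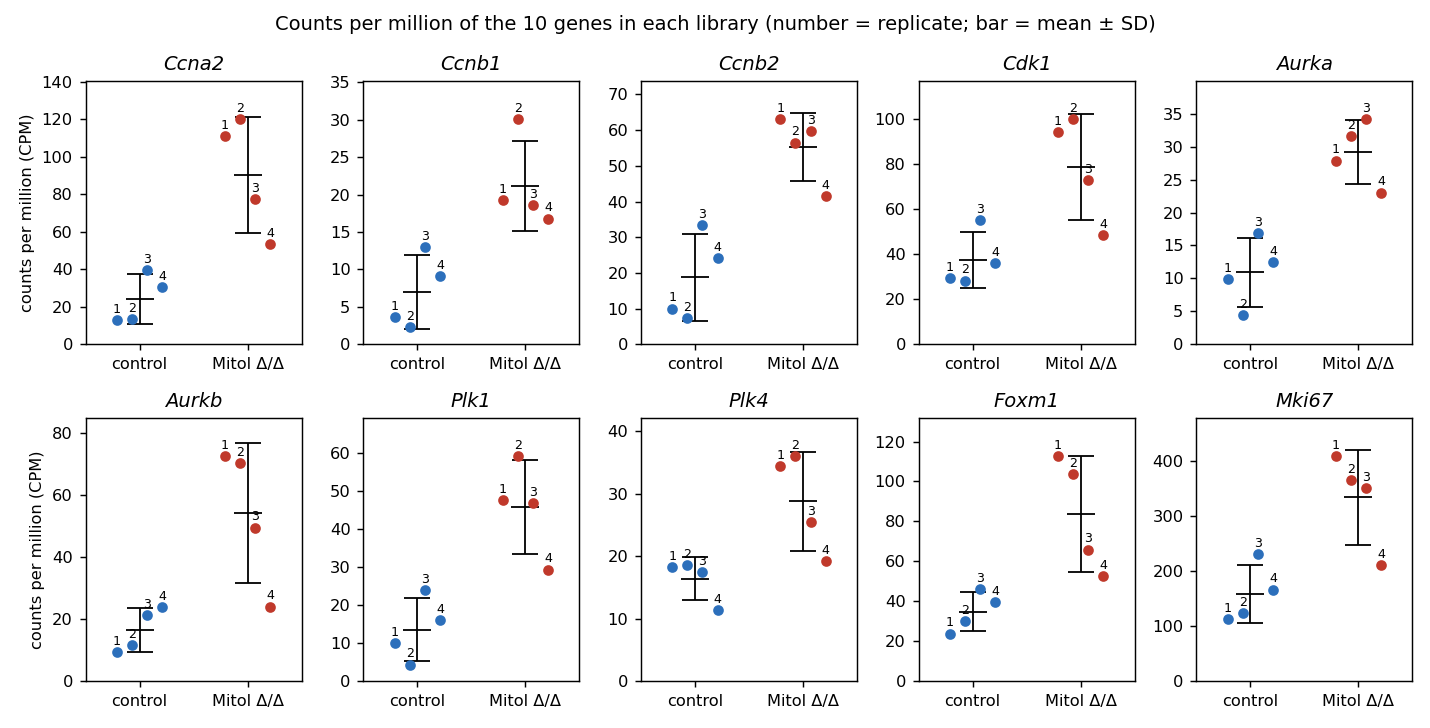
Level of each of the 10 genes in CPM (y axis, from 0; the scale differs between panels) in the 4 control (blue) and 4 Mitol Δ/Δ (red) libraries, with replicate numbers beside the points and bars for the mean ± SD (n = 4). The groups are apart in 8 panels and overlap for Cdk1 and Mki67, where Mitol Δ/Δ replicate 4 falls below control replicate 3.

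Among the cyclins, Ccna2 (chr3:36619014-36626299, minus strand, GRCm39) showed the largest fold change of the 10 genes. Its level was 111, 120.1, 77.35 and 53.36 CPM in Mitol Δ/Δ replicates 1 to 4, and 12.8, 13.27, 39.64 and 30.41 CPM in control replicates 1 to 4. The Mitol Δ/Δ libraries all lay above the controls, but replicate 4 was much closer to control replicate 3 than to Mitol Δ/Δ replicates 1 and 2. Means were 90.46 ± 30.8 and 24.03 ± 13.2 CPM (SD, n = 4), a log2 fold change of 1.90 ± 0.35 (SE; edgeR adjusted p = 0.0119). Ccna2 was the only one of the 10 genes to pass the threshold whichever library was left out.

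Ccnb1 (chr13:100915153-100923116, minus strand) encodes the main mitotic partner of CDK1 and had the lowest counts of the 10 genes. It measured 19.29, 30.06, 18.56 and 16.78 CPM in Mitol Δ/Δ replicates 1 to 4 and 3.656, 2.268, 12.98 and 9.075 CPM in control replicates 1 to 4. The groups did not overlap, although controls 3 and 4 were well above controls 1 and 2. The value in control replicate 2 rested on 20 counts (95% exact Poisson interval 1.39 to 3.5 CPM) and that in control replicate 3 on 129 counts (10.8 to 15.4 CPM), so counting error did not span the difference between these libraries; such intervals cover counting error only. Means were 21.17 ± 6.02 and 6.994 ± 4.95 CPM (log2 fold change 1.57 ± 0.42 (SE), edgeR adjusted p = 0.0392), and the call was lost in 6 of 8 fits with a library left out.

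Ccnb2 (chr9:70314966-70328874, minus strand), a second B-type cyclin found largely at the Golgi, measured 63.05, 56.53, 59.77 and 41.62 CPM in Mitol Δ/Δ and 9.984, 7.371, 33.4 and 24.14 CPM in control replicates 1 to 4. Here Mitol Δ/Δ replicates 1 to 3 were close to each other and replicate 4 was lowest, still above control replicate 3. Means were 55.24 ± 9.46 and 18.72 ± 12.2 CPM, a log2 fold change of 1.55 ± 0.37 (SE; edgeR adjusted p = 0.027), which passed the threshold in 3 of 8 fits with a library left out. Ratios between genes, here and below, were taken within each library after adding 1 CPM to both genes, which shrinks log2 ratios at low levels. Computed so, the ratio of Ccnb1 to Ccnb2 differed between groups by -0.06 on the log2 scale (exact permutation test, p = 0.943). The sign of so small a difference depends on the added 1 CPM. The ratio of Ccna2 to Ccnb1 differed by 0.29 (exact permutation test, p = 0.314, or 0.785 adjusted over 5 ratios). Rows for the pseudogenes Ccnb1-ps and Ccnb2-ps held 0 to 6 and 29 to 69 counts per library. Adding them to the parent genes left all 10 genes past the threshold. The log2 fold change of Ccnb2 then fell from 1.55 to 1.28 ± 0.27 (SE, edgeR adjusted p = 0.0189), while that of Ccnb1 rose slightly, to 1.59. In control replicate 2, Ccnb2-ps held 63 counts against 65 for Ccnb2 itself. The size of the Ccnb2 change thus depended on whether pseudogene counts were included.

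Cdk1 (chr10:69170976-69236595, minus strand), the kinase that the B-type cyclins activate, had a smaller fold change than its cyclins, a difference that was not tested. Its level was 94.24, 99.77, 72.76 and 48.22 CPM in Mitol Δ/Δ and 29.39, 28.24, 55.13 and 36.01 CPM in control replicates 1 to 4. Mitol Δ/Δ replicate 4 fell below control replicate 3, so that the groups overlapped. Means were 78.75 ± 23.5 and 37.19 ± 12.4 CPM, with a log2 fold change of 1.08 ± 0.24 (SE; edgeR adjusted p = 0.0236) and a 2-sided exact permutation p of 0.0571. For the 8 genes whose groups did not overlap this p was 0.0286, the smallest that 70 arrangements allow.

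The Aurora kinases differ in place and partner: Aurora A, activated by TPX2, acts at spindle poles, and Aurora B acts at centromeres in the chromosomal passenger complex. Aurka (chr2:172198109-172212849, minus strand) measured 27.91, 31.59, 34.18 and 23.05 CPM in Mitol Δ/Δ and 9.844, 4.423, 16.9 and 12.45 CPM in control replicates 1 to 4. Its groups were clearly apart, and it was the only one of the 10 genes highest in Mitol Δ/Δ replicate 3. Means were 29.18 ± 4.83 and 10.91 ± 5.21 CPM (log2 fold change 1.41 ± 0.30 (SE), edgeR adjusted p = 0.0195).

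Aurkb (chr11:68936467-68944764, plus strand) measured 72.49, 70.25, 49.42 and 23.94 CPM in Mitol Δ/Δ and 9.281, 11.45, 21.13 and 23.85 CPM in control replicates 1 to 4. The groups were apart in rank alone, since Mitol Δ/Δ replicate 4 (95% exact Poisson interval 20.8 to 27.4 CPM) and control replicate 4 (21 to 27 CPM) could not be told apart at this depth. Means were 54.02 ± 22.6 and 16.43 ± 7.14 CPM (log2 fold change 1.70 ± 0.35 (SE), edgeR adjusted p = 0.0173). The log2 ratio of Aurka to Aurkb differed by -0.18 between groups (exact permutation test, p = 0.657; 0.943 adjusted over 5 ratios).

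Of the Polo-like kinases, PLK1 drives mitotic entry, spindle assembly and cytokinesis, and PLK4 starts centriole duplication at the entry to S phase. Plk1 (chr7:121758646-121769108, plus strand) measured 47.61, 59.25, 46.88 and 29.31 CPM in Mitol Δ/Δ and 9.984, 4.309, 23.84 and 16.03 CPM in control replicates 1 to 4. Every Mitol Δ/Δ library was above every control, and control replicate 2 was the lowest. Means were 45.76 ± 12.3 and 13.54 ± 8.37 CPM (log2 fold change 1.74 ± 0.38 (SE), edgeR adjusted p = 0.0205).

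Plk4 (chr3:40754427-40772633, plus strand) had the smallest fold change of the 10 genes. It measured 34.4, 36.05, 25.39 and 19.24 CPM in Mitol Δ/Δ and 18.28, 18.6, 17.4 and 11.3 CPM in control replicates 1 to 4. Control replicate 4 was lowest here, unlike in the other 9 genes, and Mitol Δ/Δ replicate 4 (interval 16.5 to 22.3 CPM) lay within counting error of control replicates 1 to 3. Means were 28.77 ± 7.89 and 16.39 ± 3.44 CPM (log2 fold change 0.82 ± 0.22 (SE), edgeR adjusted p = 0.0423), and the call held in 1 of 8 fits with a library left out. The log2 ratio of Plk1 to Plk4 was 0.65 ± 0.17 (SD) in Mitol Δ/Δ and -0.45 ± 1.13 in control libraries, a difference that did not pass (exact permutation test, p = 0.0571; 0.286 adjusted over 5 ratios), with control values of -0.81, -1.88, 0.43 and 0.47.

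Foxm1 (chr6:128339518-128353147, plus strand), the forkhead factor of G2 and M phase transcription, measured 112.8, 103.8, 65.82 and 52.58 CPM in Mitol Δ/Δ and 23.77, 30.05, 45.87 and 39.39 CPM in control replicates 1 to 4. The groups did not overlap, with Mitol Δ/Δ replicate 4 nearest to the controls. Means were 83.75 ± 29.1 and 34.77 ± 9.8 CPM, a log2 fold change of 1.26 ± 0.25 (SE; edgeR adjusted p = 0.0158) that passed in 7 of 8 fits with a library left out and missed without control replicate 2.

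Mki67 (chr7:135291513-135318299, minus strand) encodes Ki-67, the marker by which cycling cells are stained. It measured 409.6, 366.1, 351.6 and 210.5 CPM in Mitol Δ/Δ and 111.9, 124.1, 230.5 and 166.4 CPM in control replicates 1 to 4. As for Cdk1, Mitol Δ/Δ replicate 4 lay below control replicate 3. Means were 334.5 ± 86.2 and 158.2 ± 53.5 CPM (log2 fold change 1.08 ± 0.23 (SE), edgeR adjusted p = 0.0197; 2-sided exact permutation test, p = 0.0571). The ratio of Cdk1 to Mki67 differed between groups by -0.03 on the log2 scale (exact permutation test, p = 0.771; 0.943 adjusted over 5 ratios), with both members of the pair up by about the same log2 fold change of 1.08.

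**Figure D3:**
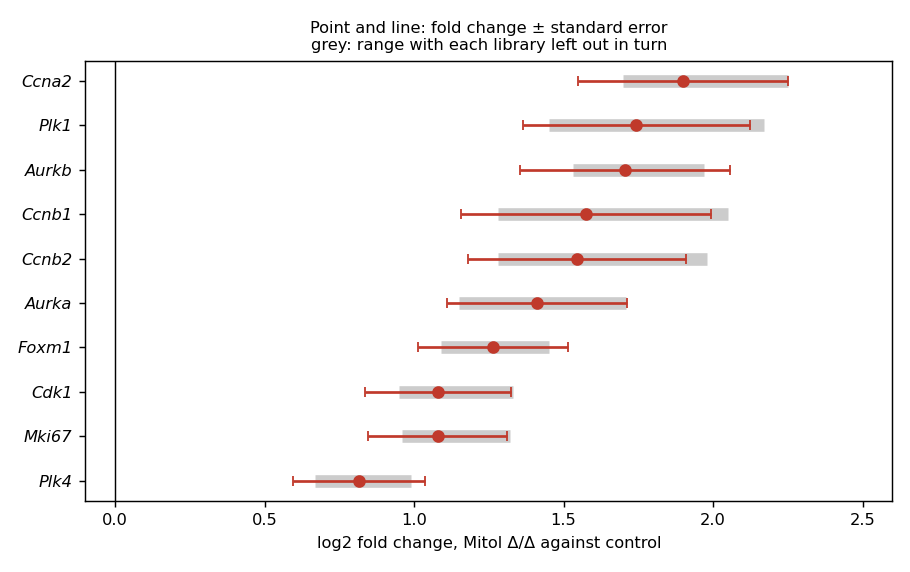
Log2 fold change of each of the 10 genes between Mitol Δ/Δ and control HSCs (x axis), ordered by size; points are edgeR estimates with lines of ± 1 standard error, and grey bars give the range when each of the 8 libraries is left out in turn. Estimates run from 0.82 for Plk4 to 1.90 for Ccna2, and every grey bar lies above 0.

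Per kilobase of exon (CPM divided by the length of all annotated exons), Mki67 was the most abundant of the 10 genes in both groups, at 32.6 ± 8.39 in Mitol Δ/Δ and 15.4 ± 5.21 in control libraries (SD, n = 4). Ccnb2 and Ccna2 followed in Mitol Δ/Δ HSCs, at 24.9 ± 4.26 and 22.2 ± 7.55, a pair whose means were within 1 SD of each other. Plk1, Aurkb, Cdk1 and Foxm1 formed a middle group between 13.4 and 16 whose spreads overlapped. Aurka (7.47 ± 1.24), Ccnb1 (4.93 ± 1.4) and Plk4 (3.53 ± 0.97) were lowest. In control HSCs, Cdk1 followed Mki67 and Ccnb2, at 6.38 ± 2.13, above Ccna2 at 5.88 ± 3.24, again within the spread. Divided by the canonical transcript instead, Ccnb2 (35.1) came before Mki67 (32.6) in Mitol Δ/Δ HSCs, so the order at the top depended on the length used.

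Mitol Δ/Δ replicate 1 or 2 was the highest library for 9 of the 10 genes, and control replicate 1 or 2 the lowest for 9. Summed over the 10 genes, levels were 992.4, 973.5, 801.7 and 518.6 CPM in Mitol Δ/Δ replicates 1 to 4 and 238.9, 244, 496.8 and 369.1 CPM in control replicates 1 to 4. Mitol Δ/Δ replicate 4 was the lowest of its group for all 10 genes, and control replicate 3 the highest of its group for 8. The spread within controls differed by gene: the highest control exceeded the lowest by 5.72 times for Ccnb1, 5.53 times for Plk1 and 4.53 times for Ccnb2, against 1.65 times for Plk4 and 1.93 times for Foxm1.

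**Figure D4:**
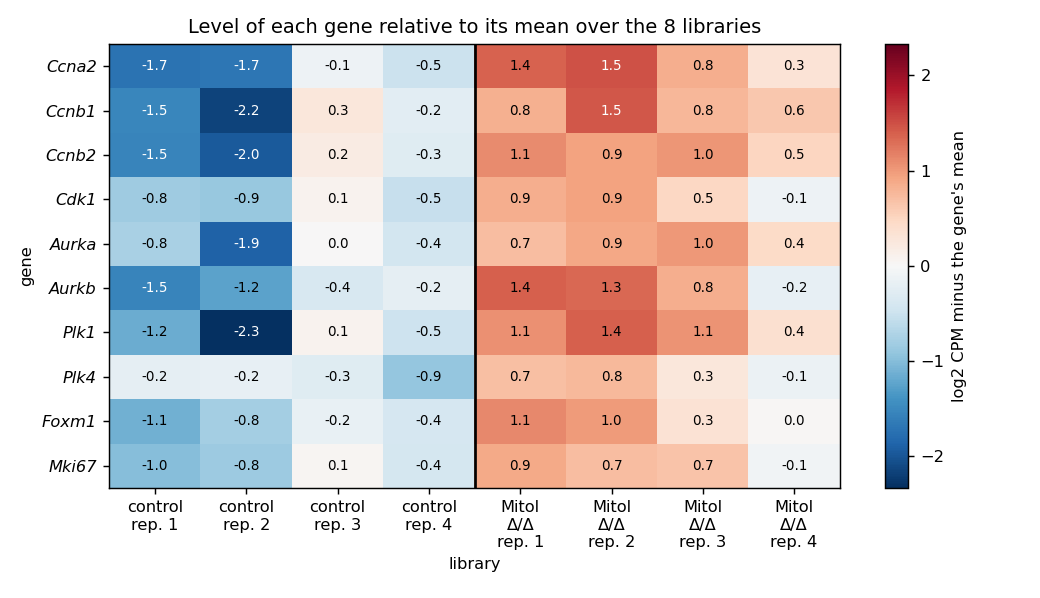
Log2 CPM of each of the 10 genes (rows) in each library (columns), as the difference from that gene's mean over the 8 libraries; red is above and blue below the mean, and the vertical line divides control from Mitol Δ/Δ libraries. Control replicates 1 and 2 are lowest for 9 genes, Mitol Δ/Δ replicate 4 is the palest of its group, and Plk4 varies least among controls.

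The 10 other genes with the most similar pattern, by Pearson correlation of log2 CPM with the mean standardized level of the 10 genes over the 8 libraries, were Ect2, Tpx2, Espl1, Bub1b, Kif1c, Kif11, Ccnf, Kif22, Cdca3 and Racgap1, with r from 0.982 to 0.991. Both groups enter this measure, and of 16434 other genes tested, 248 (1.51%) had an r over 0.9. Kif1c, a kinesin of vesicle transport, missed the threshold between groups (edgeR adjusted p = 0.0514), and the other 9 passed.

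Of 8 listed paralogs of the 10 genes, Ccna1, Ccnb3 and Aurkc were not among the genes analysed here and Plk5 was under the filter on low counts. Of the 4 tested, Ccnf, encoding the F-box cyclin of G2, was called higher (77.38 ± 18.4 against 37.75 ± 9.29 CPM, log2 fold change 1.03, edgeR adjusted p = 0.0154). Cdk2, the kinase partner of cyclin A2 in S phase, measured 114.1 ± 14 and 106.8 ± 15 CPM (log2 fold change 0.10, edgeR adjusted p = 0.654), and the stress-induced Plk2 and Plk3 did not pass (adjusted p = 0.474 and 0.397).

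Among 13 regulators of CDK1, 2 were called higher and 0 lower, with a median log2 fold change of 0.38. These were the activating phosphatases Cdc25c (1.65, edgeR adjusted p = 0.0455) and Cdc25b (1.05, adjusted p = 0.0268). The inhibitory kinase Wee1 measured 85.14 ± 19.7 and 81.74 ± 7.95 CPM (log2 fold change 0.06, adjusted p = 0.841), and the CDK-activating subunits Ccnh and Mnat1 had log2 fold changes of -0.07 and 0.09 (adjusted p = 0.741 and 0.765). Ensa, an inhibitor of the phosphatase that opposes CDK1, had -0.05 (adjusted p = 0.756).

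Of 9 partners of the Aurora and Polo-like kinases, 7 were called higher and 0 lower (median log2 fold change 1.06). The Aurora A activator Tpx2 rose by 1.67 on the log2 scale (edgeR adjusted p = 0.0117), and the 3 partners of Aurora B in the passenger complex, Birc5, Cdca8 and Incenp, rose by 1.44, 1.39 and 1.12. Incenp had the lowest adjusted p of this list, 0.00381, with 85.02 to 137.2 CPM in Mitol Δ/Δ and 49.1 to 63.18 CPM in control libraries. Cep192 and Cep152, scaffolds that recruit PLK4 to centrioles, did not pass (0.34 and 0.36, adjusted p = 0.0672 and 0.14).

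Of 12 other mitotic kinases, 6 were called higher and 0 lower. The checkpoint kinase Bub1 rose from 11.89 ± 7.2 to 36.87 ± 10.6 CPM (log2 fold change 1.62, edgeR adjusted p = 0.0171), followed by Melk (1.51), Pbk (1.43) and Haspin (1.37), the histone H3 kinase that guides Aurora B to centromeres. For Melk and Pbk, 1 Mitol Δ/Δ library lay within the control range. Nek9 and Vrk1 had log2 fold changes of 0.18 and 0.12 (adjusted p = 0.222 and 0.581).

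The MuvB complex, which binds the CHR elements described above with MYBL2 or as part of DREAM, was listed with MYBL2, the pocket proteins and other partners. This list gave 3 higher and 1 lower of 10 genes (median log2 fold change 0.43). MYBL2, the activating partner, was encoded by the gene with the largest change (Mybl2, 51.81 ± 23 against 20.27 ± 5.04 CPM, log2 fold change 1.36, edgeR adjusted p = 0.0209). Rbl1 and E2f4, components of the repressive form, were called higher by 0.57 and 0.48 (adjusted p = 0.0416 and 0.0296). Rbl2, whose product p130 holds DREAM together in resting cells, was lower, at 90.59 ± 2.88 against 115.2 ± 10.1 CPM (log2 fold change -0.35 ± 0.09 (SE), adjusted p = 0.0356), with no overlap between groups. Lin37, a MuvB subunit, measured 18 ± 3.42 and 17.95 ± 2.7 CPM (log2 fold change 0.01, adjusted p = 0.988).

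Of 20 listed targets of FOXM1, 16 were called higher and 0 lower, with a median log2 fold change of 1.34. Ube2c, the ubiquitin-conjugating enzyme of the anaphase-promoting complex, changed most (64.79 ± 18.3 against 15.92 ± 12.1 CPM, log2 fold change 2.01, edgeR adjusted p = 0.0257), followed by Gtse1 (1.81), Cenpf (1.64) and Kpna2 (1.62). Hmmr, Troap, Nek2 and Cdkn3 did not pass (adjusted p = 0.0502, 0.0744, 0.0558 and 0.566). Of the 18 targets with a promoter window, 12 held TTTGAA, against 14.7% of all genes tested with a window, 21.9% of those called higher and 16.2% of those called lower.

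Of 6 partners of Ki-67 and the chromosome periphery, Top2a (1.24), Cdca2 (0.96) and Ppp1cc (0.44) were called higher, and Ncl, the nucleolar protein nucleolin, was not (0.09, edgeR adjusted p = 0.744). Of 10 genes that license or start DNA replication, 5 were called higher and 0 lower, with a median log2 fold change of 0.84. Among these, Mcm10 changed most (1.21, adjusted p = 0.0179), followed by Gmnn (1.02), Cdc6 (0.99) and Mcm5 (0.93), and 1 of the 8 with a promoter window held TTTGAA. Over all 8 pathway lists, 38 different genes were called higher, and with 1 library left out the number ran from 10 (without control replicate 2) to 56 (without Mitol Δ/Δ replicate 4). The lists were chosen with results of these data known, so these counts are a description.

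**Figure D5:**
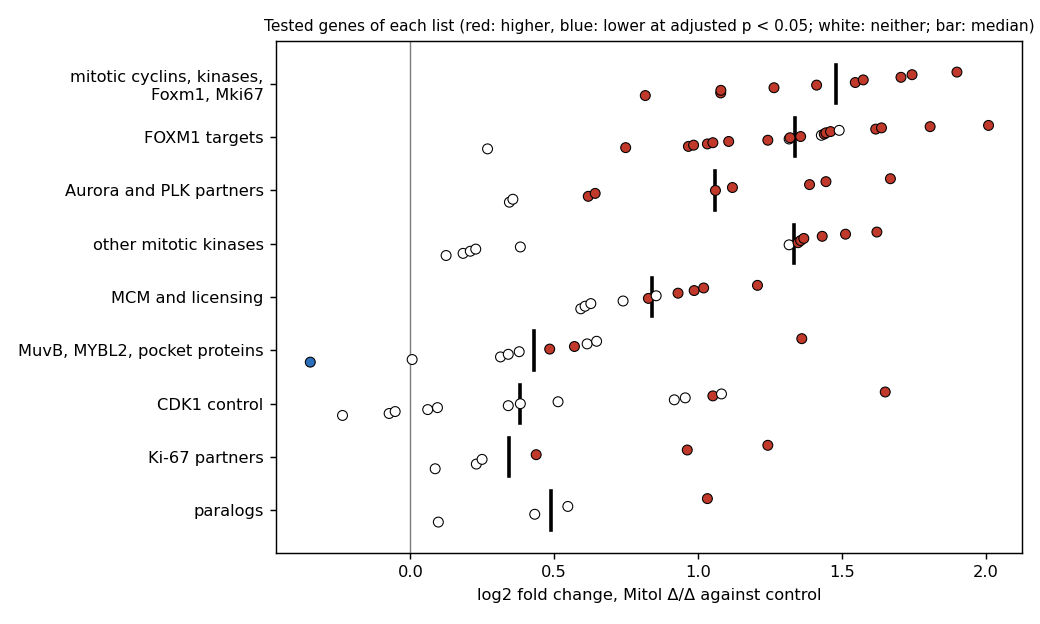
Log2 fold change between Mitol Δ/Δ and control HSCs (x axis) of each tested gene in the 10-gene set and the 8 pathway lists (rows); red points were called higher, blue lower and white neither by edgeR at an adjusted p under 0.05, and vertical bars give medians. All 10 genes of the set and 16 of 20 FOXM1 targets are red, and the single blue point is Rbl2.

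Markers of other cells and of HSC identity also moved. Among the 9 HSC genes, Kit and Hlf were called lower (log2 fold change -0.75 and -0.79, edgeR adjusted p = 0.00705 and 0.00381). Hlf measured 492 to 626 CPM in Mitol Δ/Δ and 903 to 1162 CPM in control libraries. The paper's marker definition of long-term HSCs also requires c-Kit, the product of Kit. Mecom, Mllt3 and Fgd5, other genes of HSC identity, had log2 fold changes of -0.13, -0.09 and -0.10 (adjusted p = 0.389, 0.635 and 0.467). Slamf1 and Ly6a went the other way without passing (log2 fold change 0.56 and 0.76, edgeR adjusted p = 0.0501 and 0.0605). Procr and Hoxb5 were lower, also without passing (log2 fold change -0.34 and -0.56, edgeR adjusted p = 0.179 and 0.112). Of 12 erythroid genes, 7 were tested and 3 called higher, Gata1 (log2 fold change 3.30, edgeR adjusted p = 0.00381), Hbb-bt (1.29) and Tfrc (0.68), while Alas2 had 0.07 (adjusted p = 0.858). The summed erythroid level was 188.8 to 564.2 CPM in Mitol Δ/Δ and 117.3 to 157.4 CPM in control libraries. Gata1, the erythroid and megakaryocytic transcription factor, measured 12, 13.7, 31.6 and 32.2 CPM in Mitol Δ/Δ replicates 1 to 4 and 2.67, 3.4, 2.41 and 0.676 CPM in control replicates 1 to 4, so that it was higher in Mitol Δ/Δ replicates 3 and 4, whereas the 10 mitotic genes were mostly higher in replicates 1 and 2. Of the committed progenitor markers, Cd48, which the sort gated against, was called higher (log2 fold change 1.72, adjusted p = 0.045), at 2.35 to 6.65 CPM in Mitol Δ/Δ and 0.483 to 2.31 CPM in control libraries, and Cd34 differed by 0.01 on the log2 scale (adjusted p = 0.969). Of the megakaryocyte genes, Pf4, the platelet factor 4 gene, was called lower and did not overlap between groups (1.406 ± 0.286 against 4.584 ± 1.75 CPM, log2 fold change -1.69 ± 0.37 (SE), adjusted p = 0.0202), and Vwf differed by -0.04 on the log2 scale (adjusted p = 0.925). Pf4 rested on only 11 to 69 counts per library. Itga2b was higher without passing (84.42 ± 60.5 against 59.83 ± 3.34 CPM, log2 fold change 0.49, edgeR adjusted p = 0.476). Gp9 and Gp1ba were lower without passing (log2 fold change -0.45 and -0.27, edgeR adjusted p = 0.39 and 0.421). The list summed to 257.6 to 550.1 CPM in Mitol Δ/Δ and 348.6 to 525.7 CPM in control libraries. Of the T and NK cell genes, Nkg7, a granule gene of cytotoxic cells, was called higher without overlap (26.65 ± 5.11 against 12.95 ± 3.14 CPM, log2 fold change 1.05 ± 0.20 (SE), adjusted p = 0.0144), the list summing to 45.42 to 51.47 and 28.38 to 37.97 CPM. In this list, Cd3e, Cd3g and Cd8a were not in the table, and Cd3d was under the filter on low counts. Lck and Cd4 did not pass (log2 fold change 0.34 and -0.60, edgeR adjusted p = 0.208 and 0.258). Of 8 mast cell and basophil genes 2 were in the table, and nearly all of their level was Gata2, a transcription factor that HSCs also express. Gata2 was called lower without overlap (380.9 ± 51.1 against 499.8 ± 11.3 CPM, log2 fold change -0.39 ± 0.09 (SE), adjusted p = 0.0287), and Cpa3, the mast cell carboxypeptidase, measured 0.781 to 1.45 and 1.21 to 2.25 CPM. No gene of the other 3 lists was called. Neutrophil genes summed to 235.6 to 446.5 and 236.5 to 285.6 CPM, nearly all of it Csf3r and Prtn3, B-lineage genes to 14.43 to 15.76 and 15.64 to 21.8 CPM, nearly all of it Cd79b, and macrophage and monocyte genes to 30.76 to 36.49 and 19.02 to 31.36 CPM, where Csf1r differed by 0.11 on the log2 scale (adjusted p = 0.862). The part of these cells in the levels of the 10 genes was not tested.

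Some exons of the 10 genes overlap a neighbour on the opposite strand in GENCODE vM39, which counts without strand cannot divide. The largest shared parts were 714 of 4083 exon bases for Ccna2 (with Exosc9), 984 of 3907 for Aurka (with Fam210b), 1246 of 8146 for Plk4 (with Mfsd8) and 382 of 6230 for Foxm1 (with Rhno1). Aurka also shared 293 bases with Cstf1, which had 5885 counts in all against 1790 for Fam210b, and 233 with Gm75386. Other overlaps were smaller.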

How the data were processed

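RNA of 100 sorted HSCs per library was sequenced by the authors in single-end reads of 75 bp, aligned with STAR to mm39, merged with SAMtools and counted per gene with Subread. The deposited values are raw counts, not normalized. The annotation and strand setting of the counting are not given in the sources used here, and the library kit does not mark strand. The table held 23094 rows, each with at least 11 counts in all. Of these, 1029 rows without a symbol (0.335% to 0.467% of a library's counts) were left out.

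From the counts, edgeR (version 4.0.16, R version 4.3.3) was run with TMM, its default expression filter, the quasi-likelihood test and Benjamini-Hochberg adjustment over 16444 genes, with group as the sole term. CPM values are TMM scaled, and log2 CPM used a prior count of 2. Log2 ratios between genes used CPM + 1 instead. For single values, all 70 arrangements of the libraries were enumerated in a 2-sided exact permutation test. Alternatives included DESeq2 (version 1.42.0), limma-voom (limma version 3.58.1), other scalings and filters, and each library left out. Scripts were tested on simulated data with 200 changed genes. There, at an adjusted p under 0.05, false calls made up 7.11% of calls by edgeR, 18% by DESeq2 and 7.22% by limma-voom. No 2 libraries were identical. Exon lengths, positions and overlaps came from GENCODE vM39 (GRCm39), and promoter windows from RefSeq (GRCm38.p6); no coordinates were converted.

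The 10 genes and the lists were chosen with earlier results of these data known. From each list, up to 4 genes past the threshold with the largest change, any gene called lower and genes with an absolute log2 fold change under 0.2 and at least 50 mean counts were named. Members of the pathway lists and further marker genes could be named besides. A gene of the HSC list is not reported here and was left out of its sums.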

Additional observations from a re-analysis of the deposited data

Results flagged for a closer look

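In groups of 4, a library was set apart when its gap to the nearest other library, divided by the range of the group, was over Dixon's 95% critical value for 4 values, which chance exceeds in about 1 of 20 groups. Of 138 groups examined, 11 held such a library. Among the 10 mitotic genes this was Plk4, for which control replicate 4 had 11.3 CPM against 17.4 to 18.6 CPM in the other controls (gap 0.837 of the range). Mitol Δ/Δ replicate 4 was apart and low for Ccnf (50 CPM against 83.4 to 89.1, 0.854), Ube2c (37.6 CPM against 71.1 to 76.5, 0.863) and Cdca2 (42.8 CPM against 59.2 to 61.2, 0.892). The same library was apart and high for Rbl2 (94.9 CPM against 88.9 to 89.7, 0.858). Control replicate 3 was apart and high for Bub1 (22.6 CPM against 7.45 to 9.08, 0.893) and Kpna2 (14.1 CPM against 6.18 to 6.75, 0.928). Mitol Δ/Δ replicate 3 was apart for Hbb-bs, a beta-globin gene (112 CPM against 0.41 to 2.07, 0.985), and low for Hlf, a transcription factor of HSCs (492 CPM against 609 to 626, 0.877). Control replicate 2 was apart and high for Vwf (433 CPM against 259 to 278, 0.887), and control replicate 1 for Csf1r (6.19 CPM against 4.33 to 4.54, 0.886).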

How the results depend on the processing

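All 10 genes stayed past the threshold under another normalization, library totals only, no or a stricter expression filter, DESeq2, limma-voom, the replicate block and, chosen after seeing the data, added pseudogene counts. At an adjusted p under 0.01 by edgeR 0 of the 10 passed (9 by DESeq2 and 0 by limma-voom). At this threshold edgeR called 166 genes in all, 81 higher and 85 lower, with 6 genes of the pathway lists higher. All 10 genes had an unadjusted p under 0.05 by edgeR, as had 4336 of all 16444 genes tested. DESeq2 called 2315 genes (1350 higher, 965 lower) against 1386 by edgeR (770 and 616). With 1 library left out, 3 to 10 of the 10 genes, 359 to 2501 of all genes (167 to 1482 higher, 192 to 1019 lower) and 10 to 56 list genes passed; the lowest counts came without control replicate 2 (for the 10 genes also without Mitol Δ/Δ replicate 2) and the highest without Mitol Δ/Δ replicate 4. Of 170 alternative results for the 10 genes, 130 kept their side of the threshold, 40 lost it and 0 reversed in direction. The 40 include 10 from the threshold of 0.01, which used the main fold changes unaltered. The others came from fits with 1 library left out. Replicate numbers did not pair the libraries: deviations of same-numbered libraries correlated by 0.08, -0.07, 0.05 and 0.07, libraries correlated best with their own number for replicates 1 and 3 only, and with the replicate block 1652 genes and all 10 mitotic genes passed. Per kilobase in Mitol Δ/Δ HSCs, the highest of the 10 genes exceeded the lowest by 9.24 times with all exons and by 4.24 times with the canonical transcript (chosen after seeing the data). Depth limits mainly Ccnb1, which had 20 to 276 counts per library.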
